A study of Mus musculus with 6 samples.

Results

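The enzymes described here make or break down prostaglandins, thromboxane and leukotrienes, the lipid signals that cells derive from arachidonic acid. The list, drawn up by function but with earlier results of these data known, held 10 mouse genes. They were Ptgs1, Ptgs2, Ptges, Hpgds, Hpgd, Tbxas1, Alox5, Alox5ap, Alox15 and Ltc4s. Of these, 9 were among the 19938 genes measured. Ptgs1, the constitutive cyclooxygenase, had no probe set named for it alone in the platform table used and was not analysed here. RNA came from F4/80+ cells of tumours implanted in St2-/- mice (3 samples) or in wild type mice (3 samples), with 1 array for each sample. F4/80 marks mouse macrophages on their surface, and St2 encodes the receptor of the cytokine IL-33. The genotype is that of the host, and the labels give neither the tumour, the strain or age of the mice, nor whether animals were pooled. The comparison asks how the host's loss of the receptor went with expression in these cells, and the p-values reflect no more than the spread among the samples of a group, part of which may be technical.

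Arachidonic acid is released from membranes by phospholipases. Cyclooxygenases turn it into an unstable prostaglandin, from which separate synthases make prostaglandin E2, prostaglandin D2, prostacyclin or thromboxane. The other route starts with 5-lipoxygenase and its membrane partner and leads to leukotriene B4, which attracts leukocytes, or to the cysteinyl leukotrienes, which act on vessels and smooth muscle. Macrophages are known to hold both routes and can both send and receive these signals.

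Levels are log2 values made by RMA, as deposited, so that a difference of 1 is a doubling, and differences are St2-/- minus wild type. Arrays of the same genotype correlated at 0.996 to 0.998 (Pearson, over genes) and arrays of different genotype at 0.986 to 0.988. The targeted gene itself was not analysed here, because the platform table paired no probe set with it, and so it gave no check of the genotypes. Macrophage markers had high levels in every array: the mean level over 9 of them was 11.36 to 11.42 in St2-/- arrays and 11.40 to 11.43 in wild type arrays. Adgre1, the gene of F4/80, was at 11.65, 11.58 and 11.65 in St2-/- and at 11.31, 11.36 and 11.28 in wild type. Of all genes tested, 20.8% had a limma adjusted p under 0.05, and of all genes 10.7% were higher and 10% were lower in St2-/- cells. Higher calls made up 51.8% of all calls, and 74% with arrays centred on their medians. The medians were 5.81 to 5.82 in St2-/- arrays and 5.88 to 5.93 in wild type arrays, so centring moved every difference upward.

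Of the 9 enzyme genes measured, 3 passed that test (33.3%, against 20.8% of all genes). Alox5 and Ltc4s, which act in succession on the way to the cysteinyl leukotrienes, fell, and Hpgd, which inactivates prostaglandins, rose slightly. The count was 2 without any 1 array, with the replicate block and with all rows of the table tested, because Hpgd lost its call (limma adjusted p from 0.0582 to 0.133). It was 4 with arrays centred on their medians or without the dimmest 40% of genes, and 5 with an intensity trend and robust prior. The other 6 did not pass, among them the inducible cyclooxygenase gene Ptgs2 and the 3 listed synthase genes for prostaglandin E2, prostaglandin D2 and thromboxane. The median difference over the 9 genes was 0.01, against -0.02 over all genes. The groups did not overlap for 5 of the 9, where 36.4% of all genes showed no overlap. In these bulk samples fewer cells of a type and less RNA per cell cannot be told apart.

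The upstream windows of the 3 genes that passed are given because Alox5 and Ltc4s moved one way and Hpgd the other. RefSeq's promoter table (build GRCm38.p6) had entries for 8 of the 10 enzyme genes, and Alox5ap and Alox15 were not matched. Each sequence is the 250 bases before the annotated start, read 5′ to 3′ on the gene's strand. Capitals mark matches, on either strand, to the GC box GGGCGG, the PU.1 core GAGGAA, the STAT6 half-site pair TTCNNNNGAA or the TATA box TATAAA. PU.1 is a transcription factor of myeloid cells, and STAT6 carries signals of IL-4 and IL-13.
Alox5, chr6:116461179-116461428, minus strand: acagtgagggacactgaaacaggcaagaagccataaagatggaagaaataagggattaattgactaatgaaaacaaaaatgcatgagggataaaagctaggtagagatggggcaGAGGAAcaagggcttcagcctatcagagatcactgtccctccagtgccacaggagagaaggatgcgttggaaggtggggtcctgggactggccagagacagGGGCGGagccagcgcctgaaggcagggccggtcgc
Ltc4s, chr11:50238533-50238782, minus strand: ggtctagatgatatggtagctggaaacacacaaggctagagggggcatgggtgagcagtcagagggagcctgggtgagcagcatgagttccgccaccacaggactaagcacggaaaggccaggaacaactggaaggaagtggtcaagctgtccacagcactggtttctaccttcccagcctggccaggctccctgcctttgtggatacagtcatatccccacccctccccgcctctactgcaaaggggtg
Hpgd, chr8:56294302-56294551, plus strand: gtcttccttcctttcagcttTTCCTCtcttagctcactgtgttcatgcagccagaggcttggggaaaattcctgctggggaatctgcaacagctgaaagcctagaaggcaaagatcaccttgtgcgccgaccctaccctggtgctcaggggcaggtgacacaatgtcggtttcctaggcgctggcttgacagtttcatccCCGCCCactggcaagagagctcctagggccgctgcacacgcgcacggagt

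The Alox5 window held a GC box that starts 35 bases before the annotated start and a PU.1 core that starts 136 bases before it. The Hpgd window held the same pair of motifs on the opposite strand, at 50 and 230 bases before the start. The Ltc4s window held none of the 4 motifs. Over the 8 enzyme genes with an entry, 7 windows held the PU.1 core, including those of Ptgs1, Ptgs2, Ptges, Hpgds and Tbxas1, while 23.3% of all 32851 windows in the table held it. The GC box stood in 32.7% of all windows, the STAT6 pair in 5.85% and the TATA box in 12.4%. The STAT6 pair was found upstream of Ptges and Tbxas1, and neither gene passed the test. Matches overlapped only upstream of Tbxas1, where the TATA box matched on both strands. Some genes have several windows in the table. Motif matches are descriptions of the letters, and the motifs were chosen with the results known.

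**Figure D1:**
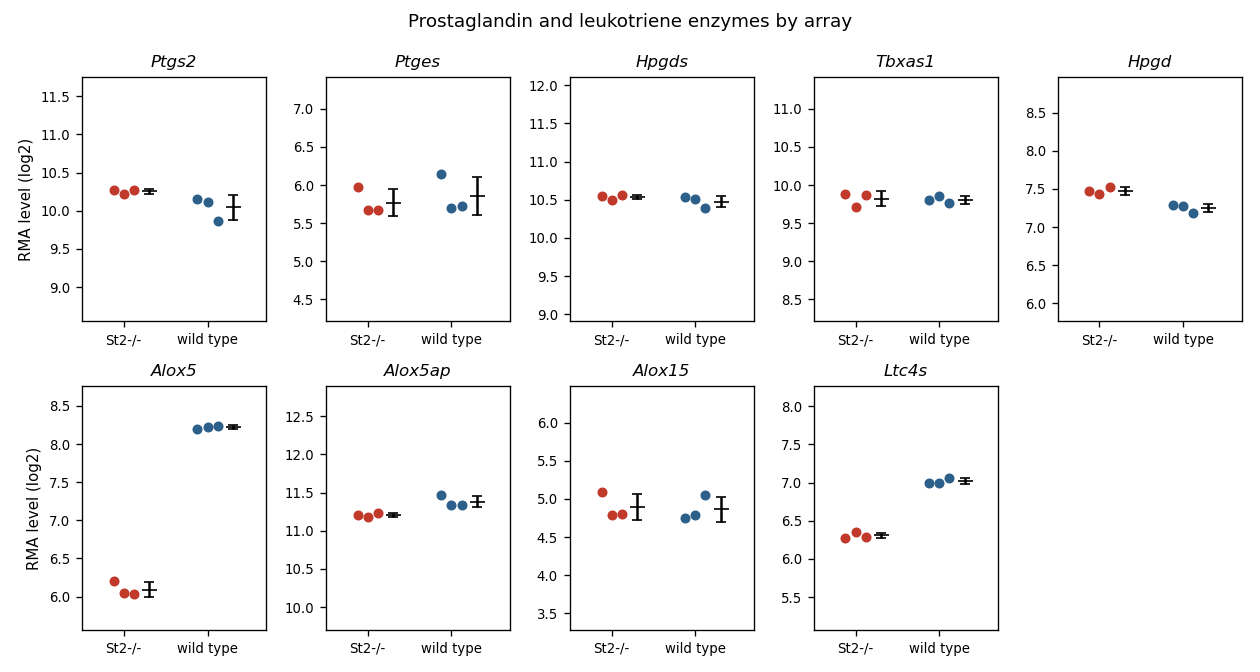
RMA level (log2, y axis) of the 9 measured enzyme genes in each array, St2-/- arrays in red to the left and wild type arrays in blue to the right, with mean and SD of the 3 arrays in black. Every panel spans the same number of log2 units. The 2 groups stand far apart for Alox5 and apart for Ltc4s, and they lie close together or overlap in the other panels.

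Alox5 encodes 5-lipoxygenase, which carries out the first steps of leukotriene synthesis. Its level (probe set 10547153) was 6.20, 6.05 and 6.03 in St2-/- replicates 1, 2 and 3, against 8.20, 8.23 and 8.24 in wild type replicates 1, 2 and 3. All 3 St2-/- arrays lay below all wild type arrays, and the gap between the groups was far wider than the spread within either. The means were 6.09 ± 0.09 in St2-/- and 8.22 ± 0.02 in wild type (SD, n = 3 each), a log2 difference of -2.13 ± 0.07 (SE) with a 95% interval from -2.28 to -1.98. This is a 4.38-fold lower level in St2-/- cells, with a limma adjusted p of 6.44e-08. Only 0.863% of all genes were both called and at least 2-fold lower, and Alox5 had the 21st greatest fall of the 19938.

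Alox5ap encodes the membrane protein FLAP, which presents arachidonic acid to 5-lipoxygenase. It was at 11.21, 11.18 and 11.23 in St2-/- cells, against 11.47, 11.34 and 11.34 in wild type cells (probe set 10527638). The groups did not overlap, but the log2 difference of -0.18 ± 0.07 (SE; 95% interval -0.32 to -0.03) did not pass, with a limma adjusted p of 0.0886. It passed after cyclic loess (limma adjusted p = 0.0142), with an intensity trend and robust prior (0.00552), and without the dimmest 40% of genes (0.0425). Its interval lay wholly above that of Alox5.

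Ltc4s encodes the synthase that joins glutathione to leukotriene A4 and so makes leukotriene C4, the parent of the cysteinyl leukotrienes. Its level (probe set 10385583) was 6.28, 6.35 and 6.29 in St2-/- arrays, against 7.0, 7.0 and 7.06 in wild type arrays. The groups were separate and each was tight. The mean was 6.31 ± 0.04 in St2-/- cells and 7.02 ± 0.03 in wild type cells (SD, n = 3 each), a log2 difference of -0.71 ± 0.06 (SE; 95% interval -0.85 to -0.58). St2-/- cells thus had a 1.64-fold lower level, with a limma adjusted p of 3.39e-05. By size of fall it ranked 377 among all genes.

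Alox15 encodes a lipoxygenase that adds oxygen at other positions of the fatty acid and is known from resident peritoneal macrophages and eosinophils. Its level was 5.09, 4.79 and 4.80 in St2-/- arrays and 4.75, 4.79 and 5.05 in wild type arrays (probe set 10387855). The groups overlapped, and the gene stood among the dimmest 40% of those measured. Its difference of 0.03 had a 95% interval from -0.21 to 0.27 and a limma adjusted p of 0.878.

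On the prostanoid side, Ptgs2 encodes the inducible cyclooxygenase. It was at 10.27, 10.22 and 10.27 in St2-/- cells, against 10.16, 10.12 and 9.86 in wild type cells (probe set 10350516). The groups did not overlap, and the wild type values spread more widely, with replicate 3 the lowest. The log2 difference was 0.21 ± 0.09 (SE; 95% interval 0.02 to 0.40), which did not pass the test over all genes (limma adjusted p = 0.123). It passed with arrays centred on their medians (0.30, limma adjusted p = 0.0354) and with an intensity trend and robust prior (limma adjusted p = 0.0281).

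The listed synthase genes that act after the cyclooxygenases showed overlapping groups. Hpgds, the haematopoietic prostaglandin D2 synthase, was at 10.55, 10.50 and 10.56 in St2-/- arrays and at 10.53, 10.51 and 10.39 in wild type arrays, a difference of 0.06 with a 95% interval from -0.09 to 0.21. Tbxas1, thromboxane synthase, was at 9.88, 9.71 and 9.87 in St2-/- arrays and at 9.80, 9.86 and 9.76 in wild type arrays, a difference of 0.01 with an interval from -0.15 to 0.17. Neither interval reaches the size of the Ltc4s difference. Ptges, the inducible microsomal synthase of prostaglandin E2, was at 5.97, 5.67 and 5.67 in St2-/- arrays and at 6.15, 5.70 and 5.72 in wild type arrays. Replicate 1 was the highest in both groups, and the difference of -0.09 had a wider interval, from -0.38 to 0.20. Limma adjusted p-values were 0.579 for Hpgds, 0.922 for Tbxas1 and 0.696 for Ptges.

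Hpgd encodes the dehydrogenase that starts the breakdown of prostaglandins. Its level (probe set 10571840) was 7.47, 7.43 and 7.53 in St2-/- cells, against 7.29, 7.28 and 7.19 in wild type cells. All St2-/- arrays were higher, by a small margin. The log2 difference was 0.22 ± 0.06 (SE; 95% interval 0.08 to 0.37), a 1.17-fold higher level with a limma adjusted p of 0.0363. The call was lost without any 1 of the 6 arrays (limma adjusted p from 0.0582 to 0.133), after cyclic loess (0.0757), with all rows of the table tested (0.0645) and with the replicate block (0.0772).

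**Figure D2:**
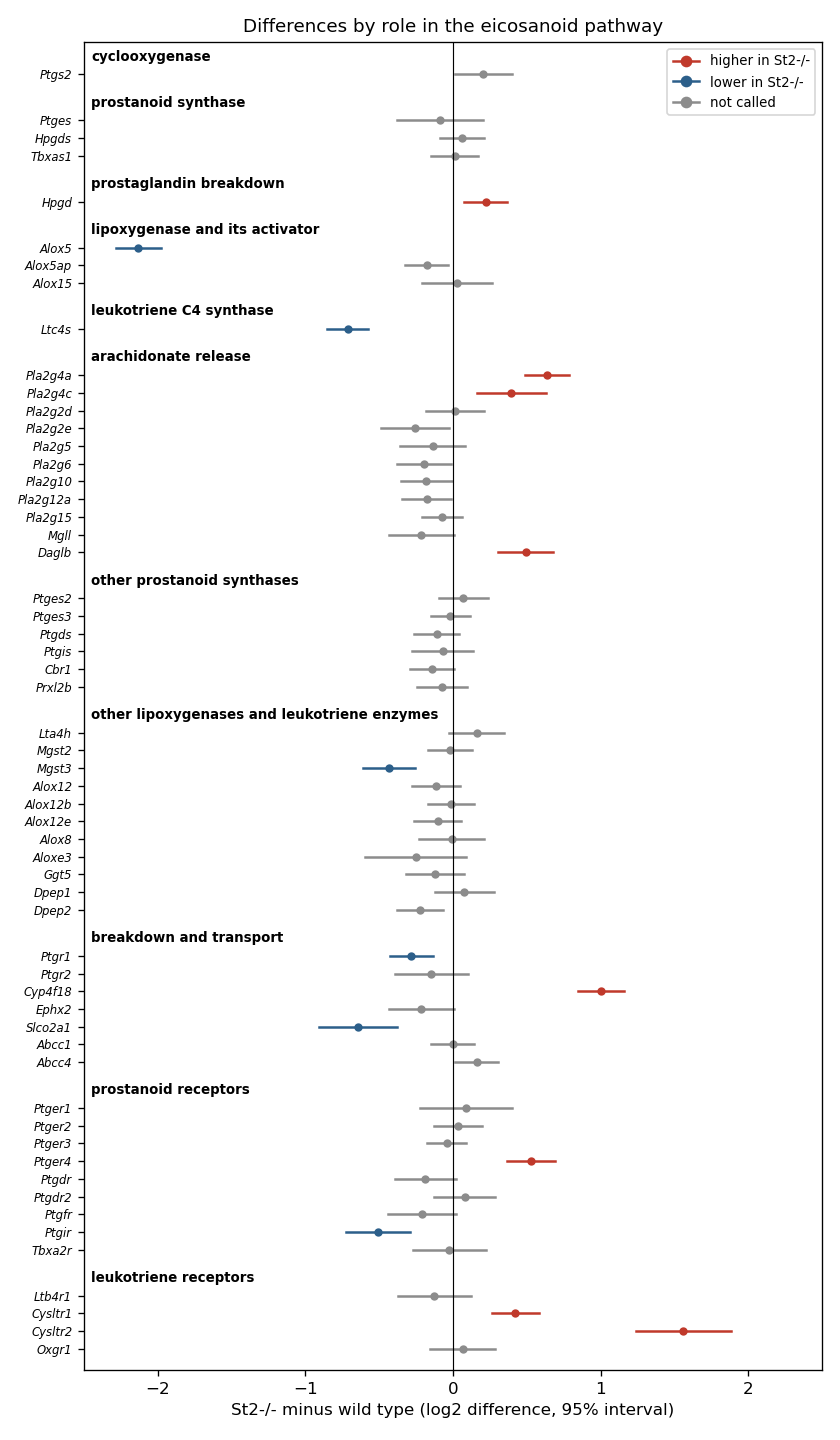
Log2 difference, St2-/- minus wild type (x axis), with its 95% interval from limma, for the 9 enzyme genes (upper 5 headings) and 48 other genes of the eicosanoid pathway, in groups by role. Red marks genes called higher, blue lower and grey not called at an adjusted p of 0.05. Alox5 lies farthest left and Cysltr2 farthest right.

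The rest of the pathway was described from a list of 51 genes by role, of which 48 were measured. Of these 48, 11 passed the test (22.9%, against 20.8% of all genes), 7 higher and 4 lower, and the median difference was -0.07, against -0.02 over all genes. The groups did not overlap for 17 of the 48, where 36.4% of all genes showed no overlap. The share of calls was near that of all genes, so the counts say little about the pathway as a whole, and the values of single genes follow.

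Of 11 measured genes listed under arachidonic acid release, 3 were called higher and 0 lower (27.3% called, against 20.8% of all genes). Their median difference was -0.14. Of all 19938 genes 6569 had an unadjusted limma p under 0.05, and of these 11 genes 7 had. Besides the 3 called, these were Pla2g2e (-0.26), Pla2g6 (-0.19), Pla2g10 (-0.18) and Pla2g12a (-0.18), which were lower but did not pass. Pla2g4a encodes cytosolic phospholipase A2, the main supplier of arachidonic acid for both routes in activated macrophages. It was at 9.63, 9.70 and 9.73 in St2-/- cells, against 8.97, 9.06 and 9.12 in wild type cells, a difference of 0.64 ± 0.07 (SE; limma adjusted p = 0.00013). Daglb encodes a diacylglycerol lipase, which yields a lipid from which arachidonic acid can be cleaved. Its level was 9.05, 9.14 and 8.95 in St2-/- cells, against 8.64, 8.61 and 8.41 in wild type cells, a difference of 0.49 ± 0.08 (SE; limma adjusted p = 0.00236). Both genes thus stood higher in every St2-/- array. Pla2g4c, a relative of Pla2g4a, differed by 0.40 ± 0.10 (SE; limma adjusted p = 0.0234), and lost its call with all rows of the table tested (limma adjusted p = 0.0752) and without St2-/- replicate 2 or wild type replicate 1 or 2 (0.0723 to 0.0784).

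Among the other synthesis genes few passed. None of 6 further prostanoid synthase genes was called by limma (0%, against 20.8% of all genes), also at an unadjusted p under 0.05 (0 genes). Of 11 further lipoxygenase and leukotriene genes 1 was called (9.09%, against 20.8% of all genes). This gene, Mgst3, a microsomal glutathione transferase that can make leukotriene C4 in vitro, fell. It was at 6.73, 6.73 and 6.60 in St2-/- arrays, against 7.11, 7.01 and 7.24 in wild type arrays, a difference of -0.43 ± 0.08 (SE; limma adjusted p = 0.00348). Lta4h, the hydrolase that makes leukotriene B4 from the same intermediate that Ltc4s uses, was at 7.78, 7.74 and 7.77 in St2-/- arrays and at 7.45, 7.59 and 7.77 in wild type arrays. Its groups overlapped, and the difference of 0.16 (95% interval -0.03 to 0.35) did not pass (limma adjusted p = 0.223). Mgst2, another enzyme able to make leukotriene C4, differed by -0.02 with an interval from -0.17 to 0.13.

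Of 7 breakdown and transport genes 1 rose and 2 fell (42.9% called, against 20.8% of all genes). Cyp4f18 encodes a cytochrome P450 that hydroxylates leukotriene B4 in mouse neutrophils. It was at 9.20, 9.17 and 9.31 in St2-/- cells, against 8.20, 8.30 and 8.17 in wild type cells, a 2.0-fold higher level (log2 difference 1.00 ± 0.07, SE; limma adjusted p = 8.55e-06). Slco2a1 encodes the prostaglandin transporter that brings prostaglandins into cells for breakdown. It was at 5.44, 5.0 and 5.05 in St2-/- cells, against 5.86, 5.66 and 5.89 in wild type cells, a difference of -0.64 ± 0.12 (SE; limma adjusted p = 0.00393). The transporter thus fell while the dehydrogenase gene Hpgd stood slightly higher. Ptgr1, a reductase that inactivates leukotriene B4 and prostaglandin metabolites, differed by -0.28 ± 0.07 (SE; limma adjusted p = 0.0127), and its call was lost after centring on the array median (limma adjusted p = 0.0727) and without St2-/- replicate 2 (0.0514).

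**Figure D3:**
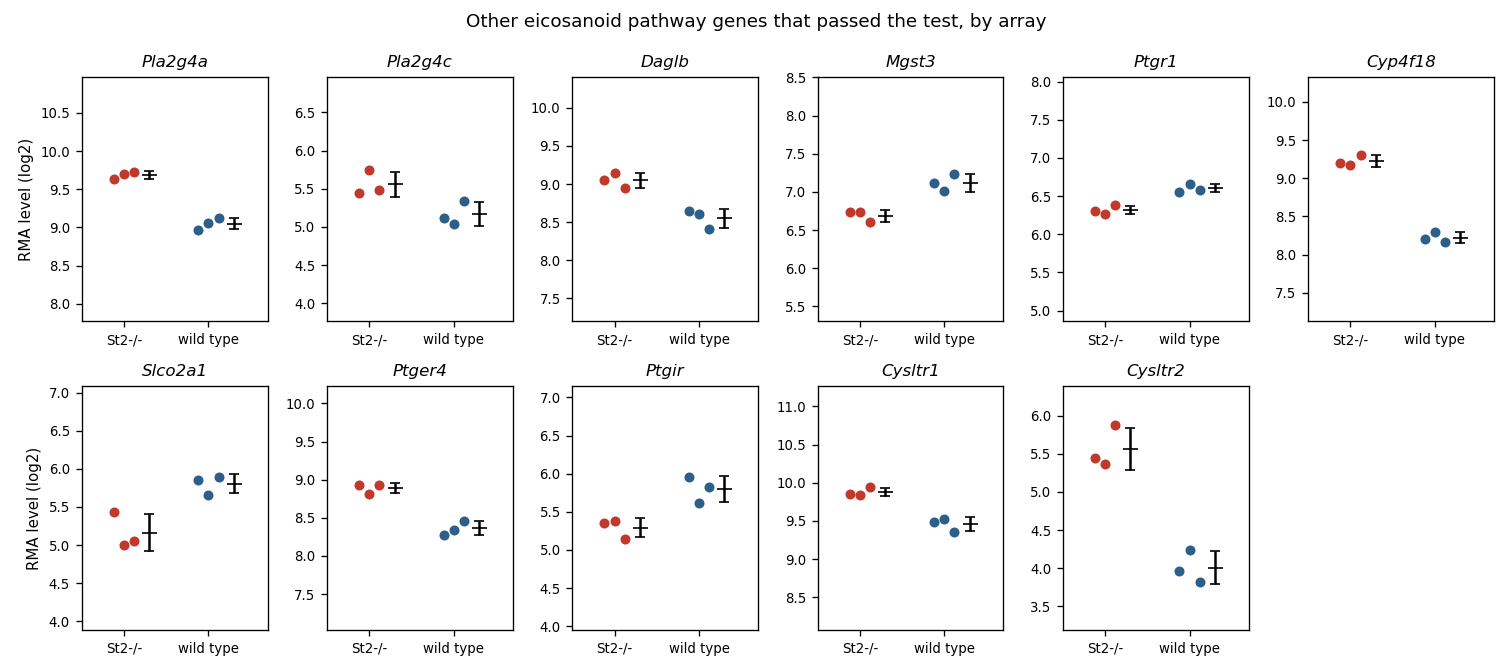
RMA level (log2, y axis) in each array of the 11 other pathway genes that passed an adjusted p of 0.05, St2-/- arrays in red to the left and wild type arrays in blue to the right, with mean and SD of the 3 arrays in black. Every panel spans the same number of log2 units. Groups are separate in each panel, and Cysltr2 and Cyp4f18 show the widest gaps.

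Of 4 measured leukotriene receptor genes 2 rose and 0 fell (50% called, against 20.8% of all genes). Both were genes of the cysteinyl leukotriene receptors, Cysltr1 and Cysltr2. Cysltr2 was at 5.45, 5.37 and 5.88 in St2-/- cells, against 3.96, 4.24 and 3.82 in wild type cells. The log2 difference was 1.56 ± 0.14 (SE; 95% interval 1.24 to 1.88), with a limma adjusted p of 5.1e-05. The gene stood among the dimmest 40% of genes over the 6 arrays, so no fold is given. Cysltr1 was at 9.85, 9.84 and 9.94 in St2-/- cells, against 9.49, 9.52 and 9.35 in wild type cells, a difference of 0.42 ± 0.07 (SE; limma adjusted p = 0.00223). The leukotriene B4 receptor gene Ltb4r1 had overlapping groups and differed by -0.13 (95% interval -0.37 to 0.12), and Oxgr1, reported as a receptor for leukotriene E4, by 0.07 (-0.15 to 0.29).

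Of 9 prostanoid receptor genes 1 rose and 1 fell (22.2% called, near the 20.8% of all genes). Ptger4 encodes EP4, a prostaglandin E2 receptor that raises cyclic AMP in macrophages. It was at 8.93, 8.81 and 8.93 in St2-/- cells, against 8.28, 8.34 and 8.46 in wild type cells, a difference of 0.53 ± 0.07 (SE; limma adjusted p = 0.000662). Ptgir, the prostacyclin receptor, was at 5.35, 5.38 and 5.15 in St2-/- cells, against 5.95, 5.62 and 5.83 in wild type cells, a difference of -0.51 ± 0.10 (SE; limma adjusted p = 0.00519). Ptger2, which encodes the other cyclic AMP-raising receptor of prostaglandin E2, differed by 0.03 (95% interval -0.13 to 0.19). The 37 pathway genes that did not pass had differences between -0.26 (Pla2g2e) and 0.16 (Lta4h), with limma adjusted p-values from 0.0514 (Dpep2) to 1 (Abcc1).

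Several other cell types that a tumour holds are known for high levels of some of these enzymes, so their markers were set beside the results. Neutrophils express Alox5 and Alox5ap: of 9 neutrophil markers 4 were lower, 0 higher and 5 not called. Their mean level was 4.46 to 4.55 in St2-/- arrays and 5.07 to 5.15 in wild type arrays, with S100a8 at -1.77 and S100a9 at -1.69 (log2 differences). Retnlg (-1.28) and Cxcr2 (-0.37) were the other 2 called lower. The 5 not called were Mpo (-0.23), Ly6g (-0.12), Camp (-0.12), Elane (-0.03) and Ngp (0.03). Mast cells express Alox5, Ltc4s and Hpgds: of 9 mast cell markers 2 were lower, Hdc (-1.02) and Kit (-0.38), and 7 not called. Their mean level was 3.91 to 4.07 in St2-/- arrays and 4.19 to 4.25 in wild type arrays, and all 9 stood among the dimmest 40% of genes. Of 5 eosinophil markers 0 were called by limma (0 at an unadjusted p under 0.05), with Ccr3 at -0.19, Epx at -0.27 and mean levels of 4.31 to 4.42 in St2-/- arrays and 4.43 to 4.54 in wild type arrays. The shares called were 44.4% of neutrophil, 22.2% of mast cell and 0% of eosinophil markers, against 20.8% of all genes. The mast cell share was thus near that of all genes. The part of these cells in the falls of Alox5 and Ltc4s was not tested.

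Markers of other cell types moved as well. Of 6 platelet markers 4 were lower, with Pf4 at -1.03 and Ppbp at -1.44. Their mean level was 5.79 to 5.80 in St2-/- arrays and 6.37 to 6.42 in wild type arrays. Tbxas1, which platelets express, differed by 0.01, and what platelets add to its level was not tested. Of 7 fibroblast markers 6 were lower and 1 higher, with Dcn at -3.33 and Lum at -3.56 and mean levels of 6.52 to 6.65 in St2-/- arrays and 8.10 to 8.14 in wild type arrays. Platelet and fibroblast lists, and the neutrophil, mast cell and eosinophil lists above, thus had lower mean levels in every St2-/- array than in any wild type array. The eosinophil list did so only narrowly, with 4.418 in St2-/- replicate 3 and 4.434 in wild type replicate 2. That gap is smaller than the one between the nearest array medians of the groups (5.82 and 5.88). Of 6 endothelial markers 3 were lower, Vwf (-1.13) among them, and 2 higher, with Kdr at 1.52 (mean level 6.15 to 6.17 in St2-/- arrays and 6.16 to 6.33 in wild type arrays). Endothelial cells are known to express Slco2a1 and Cysltr2, which moved in opposite directions here. Of 6 dendritic cell markers 2 were higher, Xcr1 (3.37) and Clec9a (1.88), 1 was lower, Ccr7 (-0.26), and the median difference was -0.01, with mean levels of 5.91 to 6.05 in St2-/- arrays and 5.07 to 5.29 in wild type arrays. Of 5 lymphocyte markers 3 were higher, with Cd3g at 0.94 and Cd3e at 0.72 and mean levels of 5.02 to 5.06 in St2-/- arrays and 4.55 to 4.76 in wild type arrays. The dendritic cell and lymphocyte lists had higher mean levels in every St2-/- array than in any wild type array, while 3 of the 6 dendritic cell markers were not called. Of 5 epithelial markers 1 was lower, Krt8 (-0.35), and Krt19 differed by -0.22, with mean levels of 6.54 to 6.67 in St2-/- arrays and 6.65 to 6.84 in wild type arrays. Among 9 macrophage markers 2 were lower and 2 higher, with Mertk at -0.72 and Fcgr1 at 0.36. The shares called were 66.7% of platelet, 100% of fibroblast, 83.3% of endothelial and 50% of dendritic cell markers, against 20.8% of all genes. For lymphocyte markers the share was 60%, for macrophage markers 44.4%, and for epithelial markers 20%, near that of all genes. The part of these cell types in the pathway's differences was not tested.

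**Figure D4:**
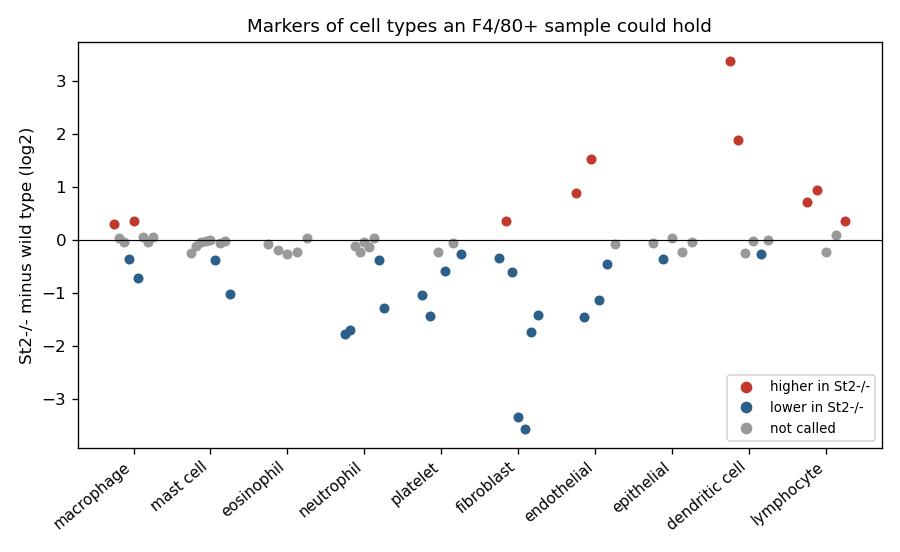
Log2 difference, St2-/- minus wild type (y axis), of the markers of 10 cell types (x axis), 1 point for each gene. Red marks genes called higher, blue lower and grey not called. Mast cell and platelet markers all lie below 0, and fibroblast, neutrophil, eosinophil and epithelial markers lie mostly below 0. The 2 highest points, among the dendritic cell markers, are Xcr1 and Clec9a.

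The genes whose pattern over the 6 arrays was most like that of Alox5 were Ddx3x, an RNA helicase gene (Pearson r = 0.9999), Gda, guanine deaminase (0.99988), and Btg2, an antiproliferative gene (0.99942). Their differences were -0.34, -1.43 and -0.64. With 3 arrays in each of 2 groups such values rest almost wholly on the step between the genotypes and are given as a description.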

How the data were processed

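F4/80+ cells of implanted tumours were measured on Affymetrix Gene 1.0 ST arrays, 3 from St2-/- and 3 from wild type hosts, per the labels' protocols. The authors deposited log2 values from RMA, according to the submitters' processing notes. The version of RMA and the log base are not stated, and log2 was taken because RMA returns that scale. RMA's quantile step hides a shift shared by most genes. The number of arrays limits the precision.

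Of 35556 probe sets, 21789 had exactly 1 symbol in the platform table. The probe set with the highest mean stood for a gene, giving 19938 genes. Each measured enzyme gene had 1 probe set. Groups were compared with limma 3.58.1 in R 4.3.3 (lmFit, eBayes, two-sided, Benjamini-Hochberg over all genes, called under 0.05), with no filter on dim genes, after a test on simulated data. The enzyme genes, the pathway and marker lists and the alternatives were chosen with earlier results of these data known. All enzyme genes, every called pathway gene, and the 2 markers of each list with the smallest p are named; other genes were named after their values were seen.

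Alternatives were centring on the array median, cyclic loess, an intensity trend with a robust prior, array weights, the mean of probe sets, all table rows, a filter on the dimmest 40% of genes, the replicate block and leaving out each array. No batch or scan date was used.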

Additional observations from a re-analysis of the deposited data

How the results depend on the processing

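The falls of Alox5 and Ltc4s kept their direction and stayed called under all 14 alternatives, between -2.18 and -2.04 for Alox5 and between -0.74 and -0.62 for Ltc4s. So did Pla2g4a, Daglb, Mgst3, Cyp4f18, Slco2a1, Ptger4, Ptgir and Cysltr1, and Cysltr2 under the 13 that could be run for it: it and Alox15 were left out with the dimmest 40% of genes. The count of enzyme genes called was 3, and 5 with an intensity trend and robust prior, where Ptgs2 and Alox5ap also passed. With arrays centred on their medians it was 4, Ptgs2 included, and without the dimmest 40% of genes 4, Alox5ap included. After cyclic loess it was 3, with Alox5ap called and Hpgd not. It was 2 without any 1 array, with the replicate block and with all table rows. Between 9 and 12 pathway genes and 2887 to 3851 of all genes were called without 1 array. Only small differences that never passed changed sign. Ptges was at 0.0033 with arrays centred on their median. Hpgds was at -0.036 and Tbxas1 at -0.083 after cyclic loess. Leaving out 1 array gave -0.19 to 0.06 for Ptges, -0.017 to 0.068 for Tbxas1 and -0.068 to 0.12 for Alox15. The causes were not tested.

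Same-numbered replicates did not deviate together (correlations of 0.01, -0.01 and -0.05 for numbers 1, 2 and 3). With the replicate block 3571 genes were called, and the limma adjusted p of Hpgd was 0.0772; the block changed no other call among the enzyme genes and the named pathway genes. No measure of background was used, so how far the dim genes Alox15 and Cysltr2 stood above it is unknown. The same holds for the called genes Pla2g4c, Slco2a1 and Ptgir, which stood at percentiles 41.9, 44.1 and 45 of mean level.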
